A study of Rattus norvegicus with 20 samples.

Results

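The 5 genes Ahr, Arnt, Ahrr, Tiparp and Aldh3a1 of the aryl hydrocarbon receptor (AhR) pathway were followed in rat liver. They are the receptor Ahr, its partner Arnt, the feedback repressors Ahrr and Tiparp, and the battery gene Aldh3a1. They were found by their symbol in the platform annotation, which gave 7 of the 31042 probe sets on the array, for 5 of 14217 named genes. A probe set is a group of short probes read together as 1 value. Ahr had 2 (1369146_a_at and 1369147_at), Tiparp had 2 (1385407_at and 1374446_at), and Arnt (1369244_at), Ahrr (1380746_at) and Aldh3a1 (1368130_at) had 1 each. The animals were 20 female rats of the Sprague Dawley strain in 4 diet groups of 5, fed for 24 days, and each liver was read on its own array. All groups ate the same rodent mash, which control rats received without any addition. BNF rats received 5,6-benzoflavone, an AhR ligand, at 1650 mg in each kg of mash. D3T rats received 3H-1,2-dithiole-3-thione at 600 mg, and OLT rats a form of it with an added methyl and pyrazinyl group (oltipraz) at 500 mg in the same amount. Both dithiolethiones are known as activators of the transcription factor Nrf2. Values are log2 probe set summaries made by the authors with GCRMA, and differences below are on this log2 scale.

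AhR is a transcription factor that rests in the cytosol in a complex with the chaperone Hsp90. When a ligand binds, it moves to the nucleus, pairs with Arnt and binds DNA at sites with the core GCGTG. Its best known targets in liver are cytochromes P450 of the Cyp1 family and a battery of enzymes that includes Aldh3a1, a cytosolic aldehyde dehydrogenase. Ahrr competes with AhR for Arnt and DNA, and Tiparp, a mono-ADP-ribosyltransferase, marks AhR for breakdown. Both repressor genes are themselves known AhR targets, which closes a feedback loop.

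The stretch before the start of each repressor gene is shown because the 2 genes gave such different readings on these arrays, Tiparp well above background and Ahrr at background in every rat. Both are from RefSeq (build GRCr8), 250 bases that end just before the annotated start, 5′ to 3′ on the plus strand, which is the strand of both genes. The window of Tiparp is chr2:152063519-152063768 and that of Ahrr is chr1:30821969-30822218. Capitals mark the core GCGTG or, for the opposite strand, CACGC.
Tiparp: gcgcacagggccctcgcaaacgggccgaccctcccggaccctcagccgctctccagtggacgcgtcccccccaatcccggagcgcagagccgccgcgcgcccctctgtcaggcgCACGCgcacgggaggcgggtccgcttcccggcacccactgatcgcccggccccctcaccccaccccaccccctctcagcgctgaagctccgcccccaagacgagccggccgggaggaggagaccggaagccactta
Ahrr: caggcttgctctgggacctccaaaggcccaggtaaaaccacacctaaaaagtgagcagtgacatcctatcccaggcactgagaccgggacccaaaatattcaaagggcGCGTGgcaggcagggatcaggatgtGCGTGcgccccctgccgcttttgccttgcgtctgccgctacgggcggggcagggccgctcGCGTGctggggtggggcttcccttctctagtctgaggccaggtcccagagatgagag
The Tiparp window held 1 core, on the opposite strand, 136 bases before the start. The Ahrr window held 3, at 142, 117 and 57 bases before the start. The window of Arnt held 1 and that of Ahr none. Aldh3a1 had no entry among the promoter windows and was not searched. Of 33469 rat promoter windows of this length, 25.9% held the core on either strand at least once and 2.45% held it 3 or more times. A match is a description of letters and not a measured binding site.

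Whether a probe set rose above background decided what could be tested. Probe sets above a log2 value of 4 in at least 5 arrays were kept, which left 12947, and 4 of the 7 probe sets followed here were among them. Of all probe sets, 52.6% never passed 4 in any array. Array medians over all probe sets lay between 3.24 and 3.46. The arrays labelled D3T 5 and OLT 1 went against their labels, each correlating better with the opposite dithiolethione group. D3T 5 had a mean r of 0.979 to OLT and 0.968 to its own group, and OLT 1 had 0.966 to D3T and 0.963 to its own. Values without both arrays stand beside the D3T and OLT results of the genes followed. Of 7 hepatocyte markers 6 were kept, and their summed linear level ranged from 151000 to 210000 in control livers and from 179000 to 193000 in BNF livers. Of these 6 markers 1 was called higher under BNF, 1 lower under D3T and 1 lower under OLT. Over all genes 1.77% were called higher under BNF, 7.45% lower under D3T and 5.58% lower under OLT. No label gives a processing batch, and precision is limited by having 5 arrays in a group.

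**Figure D1:**
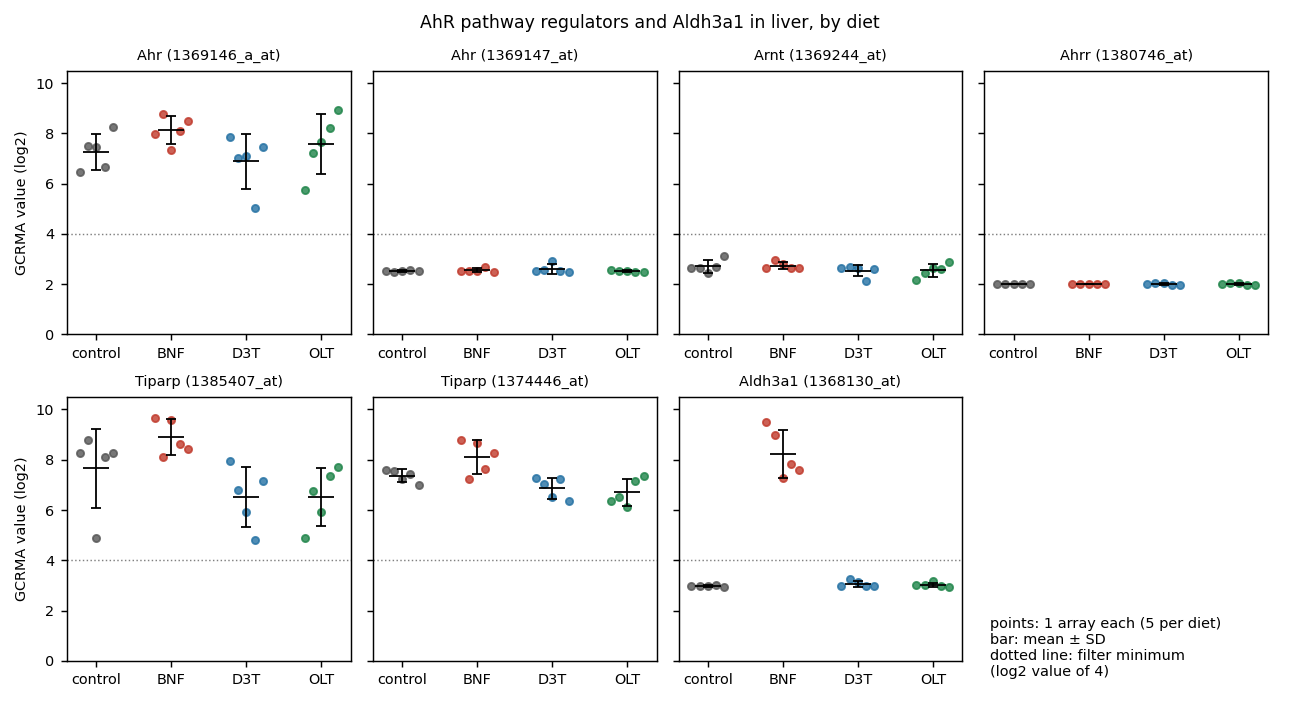
GCRMA values (log2) of the 7 probe sets in each of 20 livers, by diet, with the mean and SD of 5 arrays and the filter minimum of 4 as a dotted line. Aldh3a1 stands above the line in the BNF arrays only, while Arnt, Ahrr and the second Ahr probe set lie under it in every array.

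The receptor itself was measured by 1 of its 2 probe sets. Ahr (gene ID 25690) by probe set 1369146_a_at read 6.47, 7.51, 7.46, 6.66 and 8.26 in the control livers of replicates 1 to 5. In the BNF livers it read 7.96, 8.77, 7.34, 8.11 and 8.49. BNF 2 and BNF 5 lay above the highest control array, and the groups overlapped. In the D3T livers it read 7.86, 7.03, 7.10, 5.03 and 7.48, and in the OLT livers 5.76, 7.23, 7.67, 8.23 and 8.95. The lowest readings came from the arrays labelled D3T 4 and OLT 1, and the highest of all 20 from OLT 5.

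Group means of Ahr followed the order BNF (8.13 ± 0.55, SD, n = 5), OLT (7.57 ± 1.20), control (7.27 ± 0.72) and D3T (6.90 ± 1.09). No pair of diets passed the adjusted threshold. BNF exceeded control by 0.86 (SE 0.55, 95% interval -0.28 to 2.00, limma adjusted p = 0.496). The widest gap, BNF over D3T, was 1.24 (95% interval 0.10 to 2.38), with an unadjusted p of 0.0352 and an adjusted p of 0.141 by limma. D3T gave -0.37 against control (-1.52 to 0.77) and OLT gave 0.29 (-0.85 to 1.43). Without D3T 5 and OLT 1 the D3T difference was -0.52, the OLT difference 0.75 (limma adjusted p = 0.473) and BNF over D3T 1.38 (limma adjusted p = 0.0755). The D3T difference turned to 0.09 without D3T 4, and the OLT difference to -0.05 without OLT 5. A log2 difference of 1 is a 2-fold change, so the intervals leave room for a larger fall than that under D3T and a larger rise under OLT.

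The second Ahr probe set, 1369147_at, never rose above background. It read between 2.48 and 2.94 over the 20 arrays, with means of 2.53 (control), 2.56 (BNF), 2.61 (D3T) and 2.52 (OLT). The 2 probe sets of Ahr therefore disagree on whether the transcript is measurable, and the values of 1 probe set stand alone here.

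Arnt, the partner that AhR needs to bind DNA, was not measurable. Its probe set 1369244_at read between 2.13 and 3.13 in all arrays, with a control mean of 2.71 ± 0.25 and a BNF mean of 2.74 ± 0.15 (SD, n = 5 each). In limma without the filter, BNF differed from control by 0.03 (95% interval -0.25 to 0.31, adjusted p = 1.0). Values this low have no reliable order, and they say nothing of the amount of Arnt protein or of transcript below the array's reach.

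Ahrr, the repressor that competes for Arnt, was the flattest of the 7 probe sets. Its probe set 1380746_at read from 1.96 to 2.05 over all 20 livers. The control mean was 2.00 ± 0.01 and the BNF mean 2.01 ± 0.01 (SD, n = 5 each), so that no rise of Ahrr was detectable under BNF on this probe set. In limma without the filter the difference was 0.01 (95% interval -0.03 to 0.04, adjusted p = 1.0). The interval holds only for the background reading.

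Tiparp (gene ID 310467), the ADP-ribosyltransferase of the feedback loop, was measurable by both of its probe sets and stood higher under BNF than under either dithiolethione. Probe set 1374446_at read 7.61, 7.57, 7.22, 7.42 and 6.98 in the control livers and 8.80, 7.22, 8.65, 7.64 and 8.27 in the BNF livers. Of the BNF arrays 4 lay above the highest control array, and BNF 2 lay among the controls. It read 7.26, 7.02, 6.52, 7.22 and 6.34 in the D3T livers and 6.35, 6.51, 6.13, 7.14 and 7.35 in the OLT livers. Every one of them lay below the control median of 7.42.

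By this probe set the order of means was BNF (8.12 ± 0.67, SD, n = 5), control (7.36 ± 0.26), D3T (6.87 ± 0.42) and OLT (6.70 ± 0.52). Neighbours in this order did not differ by the test. BNF exceeded control by 0.76 (SE 0.30, 95% interval 0.14 to 1.37), with an unadjusted p of 0.0191 and an adjusted p of 0.19 by limma. With array weights, which give noisier arrays less weight, the same difference of 0.76 was called (limma adjusted p = 0.0384). The weights raised the number of all probe sets called in this comparison from 450 to 1480. BNF exceeded D3T by 1.24 (SE 0.30, limma adjusted p = 0.00754), a 2.37-fold difference, and OLT by 1.42 (SE 0.30, limma adjusted p = 0.00469), a 2.67-fold difference. Without the arrays labelled D3T 5 and OLT 1 these differences were 1.11 and 1.33 (limma adjusted p = 0.0212 and 0.0129). Both calls held when any single array was left out (limma adjusted p from 0.00147 to 0.0267). D3T gave -0.49 against control (-1.10 to 0.13) and OLT gave -0.66 (-1.28 to -0.05, limma adjusted p = 0.19), which became -0.36 and -0.58 without D3T 5 and OLT 1.

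The other Tiparp probe set, 1385407_at, gave the same direction in these comparisons with a wider spread. Its control livers read 8.27, 8.78, 4.87, 8.10 and 8.25, its BNF livers 9.68, 8.12, 9.60, 8.64 and 8.44. Among the controls, the array labelled control 3 stood far below the rest. The D3T livers read 7.95, 6.79, 5.91, 4.81 and 7.16, and the OLT livers 4.87, 6.75, 5.93, 7.36 and 7.73. Every BNF array was above every D3T and OLT array.

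By probe set 1385407_at BNF (mean 8.90 ± 0.70) exceeded D3T (6.53 ± 1.21) by 2.37 (SE 0.70, limma adjusted p = 0.0276) and OLT (6.53 ± 1.15) by 2.37 (SE 0.70, limma adjusted p = 0.0384). The call against D3T was lost without any one of the arrays labelled BNF 1, BNF 3, D3T 3 or D3T 4 (limma adjusted p from 0.0669 to 0.0743). The call against OLT was lost without BNF 1, BNF 3, BNF 4, BNF 5, OLT 1, OLT 2 or OLT 3 (limma adjusted p from 0.0511 to 0.109), and without D3T 5 and OLT 1 together it gave 1.95 (limma adjusted p = 0.115). Against the control mean of 7.65 ± 1.58, BNF stood 1.25 higher (-0.22 to 2.71), D3T 1.13 lower (95% interval of the difference -2.60 to 0.34) and OLT 1.12 lower (-2.59 to 0.35), none of them called. Without control 3 the BNF difference from control was 0.55, the D3T difference -1.82 (called, limma adjusted p = 0.0499) and the OLT difference -1.82 (not called, limma adjusted p = 0.064). Without D3T 5 and OLT 1 the D3T difference was -1.29 and the OLT difference -0.71, and BNF over D3T was 2.53 (limma adjusted p = 0.0234). The mean of the 2 probe sets gave 1.81 for BNF over D3T and 1.89 for BNF over OLT (limma adjusted p = 0.00764 and 0.00857). It did not call BNF against control (limma adjusted p = 0.24).

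**Figure D2:**
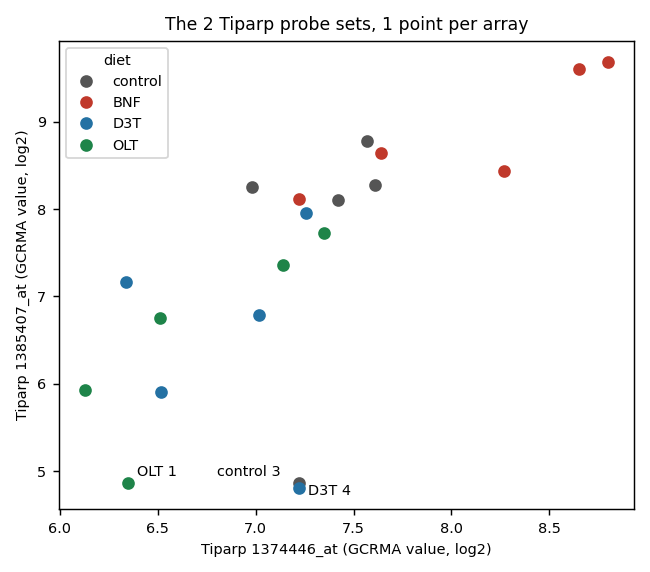
GCRMA values (log2) of the 2 Tiparp probe sets, 1 point per array, coloured by diet. The arrays labelled control 3, D3T 4 and OLT 1 read under 5 on 1385407_at (4.87, 4.81 and 4.87) while 1374446_at gave 7.22, 7.22 and 6.35.

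Across the 20 arrays the 2 Tiparp probe sets gave correlated readings. Pearson's r was 0.72 (permutation p = 0.00041) and Spearman's rho 0.79 (permutation p = 0.0001). Without D3T 4 and control 3, the 2 arrays farthest from the median of 1385407_at, r was 0.88. These 2 also had the widest gaps between the probe sets (1385407_at minus 1374446_at, -2.40 and -2.35). Leaving them out therefore favours a higher r. After each diet's mean was subtracted, r was 0.44 (permutation p = 0.0524) and rho 0.58 (permutation p = 0.0081), and r was 0.68 without these arrays. The 2 probe sets read the same RNA and are not independent samples. D3T 4 and OLT 1 were also the lowest arrays of their diets for Ahr, at 5.03 and 5.76. Over the kept probe sets the median of D3T 4 was 7.18 and that of OLT 1 was 6.93, in a range of 6.92 to 7.47 over all arrays. The part of these arrays' overall level in the low readings was not tested.

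Several markers of macrophages, stellate cells and lymphocytes were higher under BNF, and their part in the Tiparp and Ahr values was not tested. In bulk liver, a change in the number of cells of a type and a change in RNA per cell cannot be told apart. The summed linear level of 10 kept macrophage markers of 11 was 3000 to 5160 in control and 4790 to 10800 in BNF livers, with 2 of the 10 called higher, beside 1.77% of all genes. For 7 of 9 stellate cell and fibroblast markers it was 1820 to 2620 in control and 3420 to 5760 in BNF livers, with 4 called higher; Des and Lum were not kept. For 5 of 7 endothelial markers it was 552 to 1170 and 758 to 1620, with none called by limma. Of 10 lymphocyte markers 3 were kept, at 1040 to 2330 in control and 2970 to 5190 in BNF livers, and 1 was called higher. The 2 kept of 6 cholangiocyte markers summed to 59.9 to 171 in control and 63.5 to 174 in BNF livers, and 1 was called higher. Under D3T 1 marker of these 5 lists was called lower, a stellate one, and under OLT 1, a macrophage one. Of all genes 7.45% were called lower under D3T and 5.58% under OLT.

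Aldh3a1 (gene ID 25375), the aldehyde dehydrogenase of the battery, rose under BNF alone. In the BNF livers of replicates 1 to 5 it read 9.50, 8.99, 7.28, 7.85 and 7.58. It read 2.97, 2.98, 2.98, 3.03 and 2.94 in the control livers, between 2.96 and 3.24 in the D3T livers and between 2.94 and 3.17 in the OLT livers. The lowest BNF array stood far above the highest of the 15 others, and those 15 all read at background.

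The BNF mean of Aldh3a1 was 8.24 ± 0.95 and the control mean 2.98 ± 0.03 (SD, n = 5 each). The difference was 5.26 (SE 0.29, 95% interval 4.66 to 5.86, limma adjusted p = 3.62e-10). Since the control reading is background, the size is better stated as a bound: set against the filter minimum of 4, the BNF mean was at least 18.9-fold higher. BNF exceeded D3T by 5.18 (limma adjusted p = 4.42e-10) and OLT by 5.22 (limma adjusted p = 4.21e-10). Aldh3a1 entered the fit only through its BNF arrays, so these p-values are given as description. Leaving out single arrays moved the difference from control between 4.95 and 5.50. The other alternative fits gave 5.17 to 5.26, with limma adjusted p from 1.11e-10 to 4.85e-05. Neither dithiolethione gave a detectable level. D3T differed from control by 0.08 (-0.52 to 0.68) and OLT by 0.04 (-0.56 to 0.65), or by 0.11 and 0.04 without D3T 5 and OLT 1. Without them BNF exceeded D3T by 5.16 and OLT by 5.22. The fit uses 1 variance for all diets, so these intervals are wider than the SDs of 0.13 (D3T) and 0.09 (OLT) and narrower than the BNF spread would give.

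Between BNF and control 3.48% of the 12947 probe sets tested were called and 6.77% had groups that did not overlap. Aldh3a1 was the 1 called of the 4 probe sets followed, and it had passed the filter only through its BNF arrays, so that this count carries no weight of its own. Between BNF and D3T 14.9% were called and 12.2% did not overlap, and between BNF and OLT 9.62% were called and 8.51% did not overlap. In both of these Aldh3a1 and both Tiparp probe sets were called and Ahr was not. Here too Aldh3a1 had passed the filter only through its BNF arrays, and the Tiparp probe sets read the same gene. The counts of called probe sets in these comparisons therefore carry little weight beside the shares over all probe sets. No probe set followed here was called between D3T and control (11.6% of all called) or between OLT and control (6.38%).

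**Figure D3:**
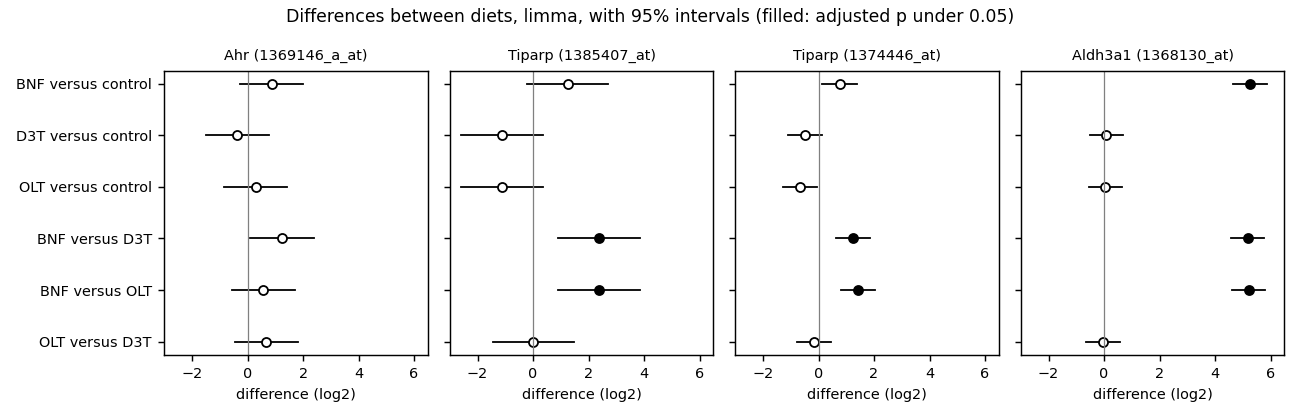
Differences in log2 value between diets for the 4 kept probe sets, with 95% intervals from limma; filled points have an adjusted p under 0.05. Aldh3a1 differs in each comparison with BNF by 5.18 to 5.26, Tiparp in BNF against D3T and OLT, and Ahr in none.

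The 2 dithiolethiones, which differ by the methyl and pyrazinyl groups of OLT and were fed at unequal doses, gave values side by side with no called difference in any of the 4 probe sets. OLT minus D3T was 0.67 for Ahr (95% interval -0.47 to 1.81), 0.01 and -0.18 for Tiparp by 1385407_at (-1.46 to 1.47) and 1374446_at (-0.79 to 0.44), and -0.04 for Aldh3a1 (-0.64 to 0.56). Limma called 0.0% of probe sets in this comparison, 0 of 12947, while 1385 had an unadjusted p under 0.05. With D3T 5 and OLT 1 left out it called 549, none of them among the 4, with 1.26 for Ahr (limma adjusted p = 0.225). By Tiparp 1385407_at the sign of this near-zero difference was not stable, at 0.58 without both arrays and -0.42 without D3T 4. These results do not show that the compounds act alike on the genes.

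Other genes of the battery showed how Aldh3a1 compares from rat to rat. Cyp1b1, a P450 of the same AhR response, read 13.19, 13.45, 12.88, 12.79 and 12.95 in the BNF livers and no more than 2.79 elsewhere. Like Aldh3a1, it was thus at background in the other 3 diets. Its SD within BNF was 0.27, against 0.95 for Aldh3a1. Cyp1a1, the P450 most used as a readout of AhR, read between 13.50 and 13.77 in the BNF livers (SD 0.12). BNF 1 was highest for Aldh3a1 (9.50), while BNF 2 was highest for Cyp1b1 (13.45), Cyp1a1 (13.77) and Nqo1 (12.14) and lowest for both Tiparp probe sets (8.12 and 7.22).

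Cyp1a1 was not flat outside BNF, in contrast to the background readings of Aldh3a1 there. In the control livers Cyp1a1 read 3.99, 5.61, 4.37, 5.76 and 6.59. In the OLT livers Cyp1a1 read 3.97, 6.00, 9.97, 10.28 and 7.32, and Aldh3a1 read 3.03, 3.01, 3.17, 2.96 and 2.94 in the same arrays. The arrays OLT 3 and OLT 4 thus had Cyp1a1 near 10 with Aldh3a1 at background. Under D3T Cyp1a1 differed from control by -0.06 (SE 1.01), or by -0.84 without D3T 5 and OLT 1. In the D3T livers it read 5.76, 4.00, 3.98, 3.97 and 8.31. The high reading came from the array labelled D3T 5 and the low OLT reading from the array labelled OLT 1, the 2 arrays that stood nearer the other group. Cyp1a1 under OLT exceeded control by 2.25 (SE 1.01, limma adjusted p = 0.193) and was not called. Without OLT 1 it was 3.13 (limma adjusted p = 0.0586), and without OLT 1 and D3T 5 it was 3.13 and called (limma adjusted p = 0.0201).

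**Figure D4:**
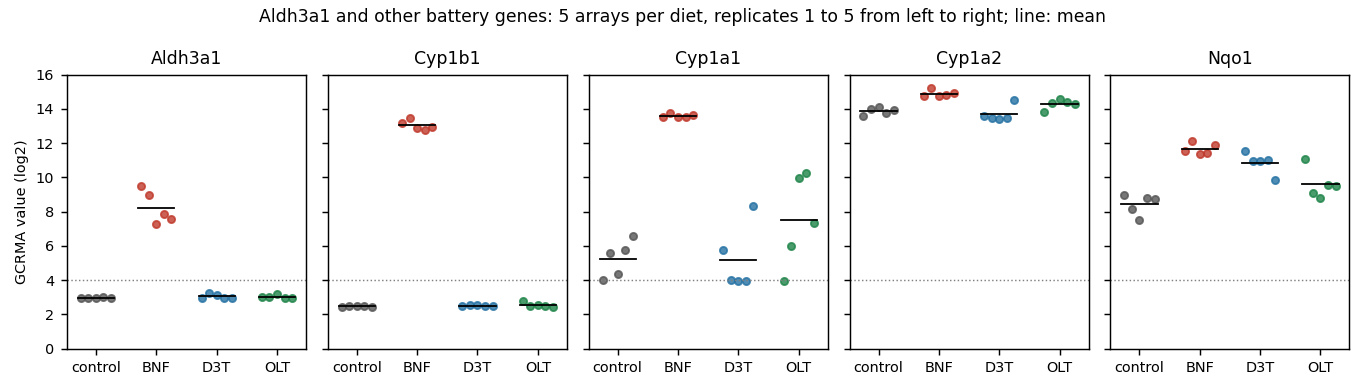
GCRMA values (log2) of Aldh3a1 and 4 other battery genes in 5 arrays per diet, replicates 1 to 5 from left to right, with the mean as a line and the filter minimum of 4 dotted. Aldh3a1 and Cyp1b1 leave background in BNF arrays only, while Cyp1a1 reaches 9.97 and 10.28 in 2 OLT arrays and Nqo1 is also high in D3T arrays.

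The genes whose pattern over the 20 arrays was closest to that of Aldh3a1 were Scn4b, Vxn and Mybl1. Likeness was the root mean square difference between 2 probe sets after each was centred on its own mean, a measure in log2 units. Scn4b, a sodium channel subunit, lay at 0.388, Vxn (vexin) at 0.486 and Mybl1, a Myb family transcription factor, at 0.500. Scn4b went from a control mean of 2.43 to 7.53 under BNF, and read 2.48 under D3T and 2.52 under OLT. Vxn went from 3.43 to 8.11 and Mybl1 from 4.53 to 8.98. They were selected for this likeness, and their changes are given as descriptions.

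Aldh3a2, the closest relative of Aldh3a1 and a membrane-bound aldehyde dehydrogenase of the endoplasmic reticulum, moved in another way. It read 12.94 ± 0.14 in control livers and 12.65 ± 0.26 in BNF livers, a difference of -0.29 (SE 0.12, limma adjusted p = 0.21). It fell by 0.81 under D3T (SE 0.12, limma adjusted p = 0.000224) and by 0.55 under OLT (SE 0.12, limma adjusted p = 0.00821).

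Of 47 other genes listed with the pathway, 33 had a kept probe set, and most of those that changed under BNF were targets. Some were listed as family relatives, namely the bHLH-PAS genes, clock genes among them, and Aldh3a2. A change in a relative is not by itself a change of the AhR pathway. Between BNF and control 5 of the 33 rose and 1 fell, with a median of -0.04, against 1.77% rising, 2.40% falling and a median of -0.06 over the 7837 genes tested. The 5 were all among the 11 kept targets, whose median was 0.91. Of these Cyp1b1 passed the filter only through its BNF arrays, so the count and median carry that limit. Set against the filter minimum of 4 in place of its background control reading, Cyp1b1 was at least 531-fold higher (limma adjusted p = 6.53e-23). Cyp1a1 rose by 8.33 (SE 1.01), the quinone reductase Nqo1 by 3.22 (SE 0.38) and Cyp1a2 by 0.99 (SE 0.18), with limma adjusted p from 4.36e-05 to 0.00406. Nfe2l2, the gene of Nrf2, rose by 0.91 (SE 0.22, limma adjusted p = 0.0266). This call was lost without control 4, control 5, BNF 1, BNF 2 or BNF 4 (limma adjusted p from 0.0520 to 0.0896). It was also lost after centring on the median and without the filter. The targets below were not called although they are known to respond in some settings: Xdh, xanthine dehydrogenase, gave 0.31, Ugdh, which makes UDP-glucuronate, gave -0.21, and Igfbp1, a carrier of insulin-like growth factors, gave -1.50 (limma adjusted p = 0.124).

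The genes that act on the receptor or beside it were mostly not called under BNF. None of 3 chaperone complex genes, 7 genes of the bHLH-PAS family or 7 coactivators and corepressors was called by limma between BNF and control. The share over all genes was 1.77% higher and 2.40% lower. Lists this short can hold no call at that share, so the absence says little about these genes. Hsp90ab1, an Hsp90 gene, gave -0.24, and Ptges3, its cochaperone p23, gave -0.17. The hypoxia-inducible factors Epas1 and Hif1a, which also pair with Arnt, gave 0.01 and -0.11. Sp1, a transcription factor that works with AhR at Cyp1a1, gave -0.11, and the coactivators Ncoa1 and Crebbp gave -0.09 and 0.16. Of 4 genes of protein degradation and ADP-ribose turnover, Macrod1, a hydrolase that removes mono-ADP-ribose, fell by 0.86 (SE 0.16, limma adjusted p = 0.00527) and kept its call in each alternative.

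Under D3T 4 of the 33 rose and 6 fell (median -0.09, against 5.60% rising, 7.45% falling and a median of -0.02 over all genes). Hsp90ab1 fell by 0.72 (SE 0.11, limma adjusted p = 0.000349) and Ptges3 by 0.45 (SE 0.12, limma adjusted p = 0.0213), the latter not called without control 5 or D3T 2 (limma adjusted p between 0.0579 and 0.0635). The clock repressors Per2 and Per1, which carry PAS domains like AhR, fell by 4.39 (SE 0.51) and fell by 1.61 (SE 0.32). Npas2, a clock activator that read at background in control livers (mean 2.93), had a D3T mean of 4.4 and was called higher (limma adjusted p = 0.0207). Against the filter minimum this is at least 1.32-fold. It read above 4 in 3 D3T and 2 OLT arrays and in no control or BNF array, so it passed the filter only through these, and the call was lost without D3T 3 (limma adjusted p = 0.0652). Nfe2l2 fell by 1.11 (SE 0.22), where it rose under BNF, and BNF exceeded D3T by 2.02 (limma adjusted p = 7.14e-06). Nqo1 rose by 2.41 (SE 0.38), Ugdh by 1.15 (SE 0.23) and Parp1, a poly-ADP-ribose polymerase, by 0.51 (SE 0.12).

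Under OLT none of the 33 rose by limma and 4 fell (median -0.12, against 1.93% rising, 5.58% falling and a median of -0.05 over all genes). Besides Aldh3a2 these were Per2, which fell by 2.21 (SE 0.51), Per1, which fell by 1.13 (SE 0.32), and Epas1, which fell by 0.50 (SE 0.14). Epas1 was not called without control 1, control 2, control 4, control 5, OLT 2 or OLT 3 (limma adjusted p from 0.0539 to 0.102). Per1 was not called without control 4, control 5, BNF 1, OLT 1, OLT 2, OLT 3 or OLT 4 (limma adjusted p from 0.0512 to 0.0959), nor after quantile normalization. Both calls were also lost without the filter and with only the groups compared. Without D3T 5 and OLT 1, 6 of the 33 were called under OLT: these 4, Cyp1a1, and Cyp1a2 at 0.52 (limma adjusted p = 0.0107). The same fit called 594 of all 12947 probe sets under OLT and 1711 under D3T. Under D3T 11 of the 33 were called in it, the 10 above and Cyp1a2 at -0.39 (limma adjusted p = 0.0248). The comparisons with control share the same 5 control arrays.

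**Figure D5:**
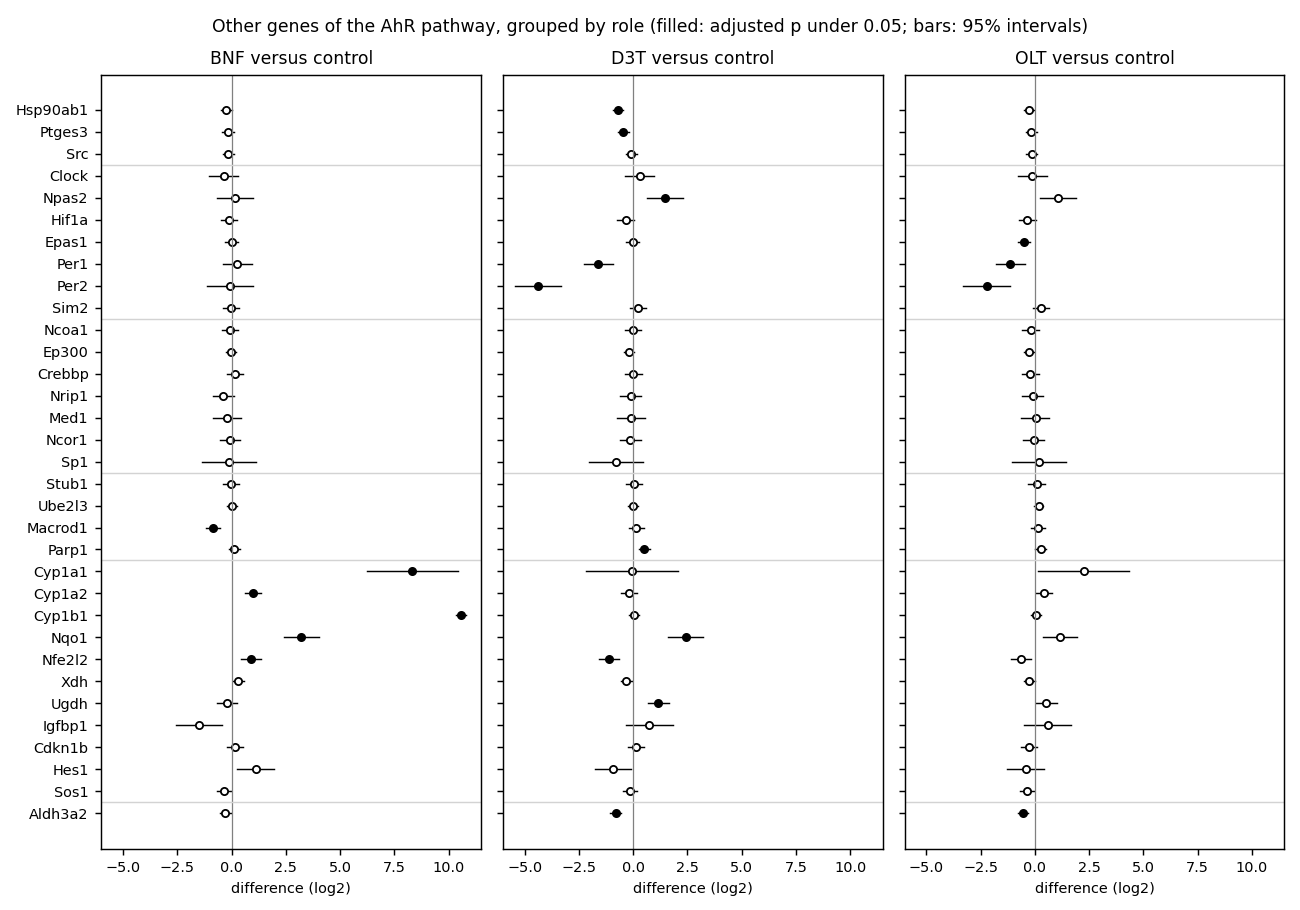
Differences in log2 value from control under BNF, D3T and OLT for 33 other genes listed with the AhR pathway, grouped by role. Family relatives such as Per1, Per2 and Aldh3a2 are among them. Bars are 95% intervals from limma, and filled points have a limma adjusted p under 0.05. The filled points of the BNF panel are 5 targets that rose and Macrod1, while Per1, Per2 and Aldh3a2 fell in both dithiolethione panels.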

How the data were processed

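RNA from each liver was labelled with biotin and hybridised to a 1-colour Affymetrix array. The deposited log2 values were made by the authors with GCRMA, per the submitters' processing notes; its version is not given in the sources used here. GCRMA removes background by probe sequence, so that transcripts it cannot detect gather near a low floor and their differences shrink. The values (0.083 to 16.46) were used unchanged. Gene names came from the platform annotation, brought up to date through gene identifiers; 20826 probe sets had 1 gene, 436 several and 9780 none.

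Differences between diets were fitted on all 20 arrays together with limma 3.58.1 in R 4.3.3 (lmFit, then eBayes with trend), a mean for each diet and no covariate. The 12947 probe sets that passed the filter (over 4 in 5 or more arrays) entered the fit, and two-sided p-values of each of 6 comparisons were adjusted over them by Benjamini and Hochberg's method, with 0.05 as the threshold. For other genes the brightest kept probe set was taken. The 2 correlations between Tiparp probe sets used 100000 permutations each. The 5 genes, the gene lists and the tests were chosen with earlier results of these data known. Named besides the 5 were pathway genes called against control, up to 3 uncalled ones per role by level, and the 3 genes nearest to a gene called against control. Alternatives were median centring, quantile normalization, other filters, other variance priors, array weights, fits restricted to the 2 diets at hand, a block for replicate number, averaging a gene's probe sets, and omission of each array; leaving out D3T 5 and OLT 1 together was added after the data were seen.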

Additional observations from a re-analysis of the deposited data

Results flagged for a closer look

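In 28 sets of 5 arrays (7 probe sets in 4 diets), 4 had an extreme array whose gap to the next exceeded 0.71 of the whole range, Dixon's 95% limit for 5 values; chance alone flags about 1 set in 20. For Tiparp probe set 1385407_at the array labelled control 3 read 4.87, with 8.10 as the next value among the controls (gap over range 0.83). For Arnt the array labelled D3T 4 read 2.13, with 2.59 as the next D3T value (0.85). For the Ahr probe set 1369147_at the array labelled D3T 3 read 2.94, with 2.57 next (0.83), and the array labelled BNF 4 read 2.68, with 2.54 next (0.77). The Arnt and Ahr values are background readings.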

How the results depend on the processing

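Of 726 alternative fits of the 24 differences, 697 kept direction and side of the threshold, 14 lost a call, 2 gained one and 13 changed sign, none of these called before or after. The sign changes were in Ahr, D3T against control (-0.61 to 0.09 without single arrays) and OLT against control (-0.05 to 0.75); in Tiparp 1385407_at, OLT against D3T (-0.42 to 0.42, -0.05 after quantile normalization, just below 0 after centring, -0.08 for the mean of probe sets); and in Aldh3a1, OLT against control (-0.02 after centring, just below 0 after quantile normalization) and OLT against D3T (-0.07 to 0.01). For Tiparp 1385407_at, BNF over D3T kept its value of 2.37 without the filter but lost its call (limma adjusted p = 0.064), as did BNF over OLT (2.37, limma adjusted p = 0.0876), where more probe sets were tested. Without D3T 5 and OLT 1 the latter was 1.95 (limma adjusted p = 0.115). Leaving out single arrays gave 1.94 to 2.73 for BNF over D3T, 1.95 to 2.67 for BNF over OLT and -1.82 to -0.70 for D3T against control. With array weights Tiparp 1374446_at was called between BNF and control at 0.76. The cause was not tested. Readings near the floor limit Arnt, Ahrr and 1 Ahr probe set.

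Counts of called probe sets moved more. BNF against control gave 450, 299 after centring, 1480 with array weights and 263 to 508 without single arrays (263 without BNF 1, 291 without BNF 2, 297 without control 2). D3T against control gave 1502, 974 without the filter, 2885 with weights and 969 to 1673 without single arrays (969 without D3T 3). OLT against control gave 826, 457 without the filter, 2054 with weights, 382 with only the groups compared and 523 to 1310 without single arrays (523, 524 and 544 without control 1, 2 and 5, 532 without OLT 1, 1310 without OLT 5). BNF against D3T gave 1935 and 3337 with weights. BNF against OLT gave 1246, 2767 with weights and 777 to 1675 without single arrays (777 without BNF 1). OLT against D3T gave 0, 112 with weights, 549 without D3T 5 and OLT 1, and 0 to 236 without single arrays (236 without D3T 5, 131 without OLT 1, 1 without D3T 4). Of the pathway genes, OLT against control called 4, 2 without the filter or with only the groups compared, 8 with array weights and 2 to 5 without single arrays (2 without control 4, control 5, OLT 2 or OLT 3).

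The replicate number as a block changed no call of the 5 genes; Tiparp 1385407_at gave 2.37 for BNF over D3T (limma adjusted p = 0.0356). Counts under the block were 419, 1578, 870, 1952, 1285 and 0 in the order above. No label says that equal numbers mark a pairing. Of 30 pairs of arrays with 1 number, 11 had deviations correlated above 0.1 (r from -0.272 to 0.297). Of 120 pairs with different numbers, 33 did (r from -0.471 to 0.606). These values do not decide whether arrays with equal numbers belong together.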
